A study of Rattus norvegicus with 6 samples.

Results

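The natriuretic peptide system of the rat heart was examined through 7 genes, chosen by name from the 32623 genes of the deposited table. They were the ligand genes Nppa, Nppb and Nppc, the receptor genes Npr1, Npr2 and Npr3, and the protease gene Corin. RNA of whole myocardial tissue had been sequenced in 6 samples of wild-type (WT) rats, 3 labelled sham and 3 labelled ischemia. In the ischemia rats the LAD coronary artery (left anterior descending) had been ligated, and the titles of both groups give 30 min. Anesthesia, ventilation and left thoracotomy are described for the male rats of the study, ligation only for the ischemia model, and the labels give no strain, age or region of the heart. The question was how far the genes of this hormone system differed between the groups after 30 min.

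Atrial natriuretic peptide (ANP, from Nppa) and brain natriuretic peptide (BNP, from Nppb) are hormones of cardiomyocytes that lower blood volume and pressure. Atrial cardiomyocytes store ANP in granules, while working ventricular cardiomyocytes of adults make little until they are stretched or stressed. Corin cuts pro-ANP to the active hormone. ANP and BNP bind the receptor encoded by Npr1, a guanylyl cyclase that makes cGMP, C-type natriuretic peptide (from Nppc) binds the related cyclase encoded by Npr2, and the receptor encoded by Npr3 has no cyclase domain and removes the peptides.

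Nppa and Nppb are neighbours on the plus strand of chromosome 5. The deposited table places Nppb from 164796185 to 164797531 and Nppa from 164808323 to 164809705, 10792 bases further on, in a genome build not given in the sources used here. The other members lie, as the table lists them, on chromosome 9 from 93731436 to 93735636 (Nppc, minus strand), chromosome 2 from 189840403 to 189856090 (Npr1, minus) and from 61888950 to 61949926 (Npr3, minus), chromosome 5 from 59128315 to 59147255 (Npr2, plus) and chromosome 14 from 38247791 to 38473648 (Corin, plus). The sequences upstream of Nppa and Nppb are shown because these genes lie side by side and their levels differed between samples in unlike ways. These sequences come from RefSeq on build GRCr8, whose table held 6 of the 7 members and not Npr2, and they end before the most upstream annotated start. Capitals mark 3 short motifs searched on both strands, namely GATAA (bound by GATA factors), AAGTG (bound by Nkx2-5) and CATTCC (the M-CAT element bound by TEAD factors).
Nppa, chr5:163711934-163712183, plus strand: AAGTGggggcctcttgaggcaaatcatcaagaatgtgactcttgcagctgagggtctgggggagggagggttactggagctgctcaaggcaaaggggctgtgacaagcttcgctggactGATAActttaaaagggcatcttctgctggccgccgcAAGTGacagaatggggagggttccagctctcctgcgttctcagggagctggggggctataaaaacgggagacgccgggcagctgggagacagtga
Nppb, chr5:163699758-163699954, plus strand: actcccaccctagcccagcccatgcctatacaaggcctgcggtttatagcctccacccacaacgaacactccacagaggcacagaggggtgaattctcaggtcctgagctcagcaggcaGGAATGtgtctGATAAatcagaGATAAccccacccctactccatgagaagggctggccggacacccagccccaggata

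In 250 bases before the Nppa start there was 1 GATAA match, 131 to 127 bases upstream, and 2 AAGTG matches. Of 33469 RefSeq promoters, 23.5% held GATAA at least once and 10.5% held AAGTG 2 or more times in a window of that length. The 197 bases before Nppb held 2 GATAA matches, which 3.11% of windows of that length matched or exceeded, and 1 CATTCC match on the minus strand, a motif held by 9.58%. The matches did not overlap each other. They are letter matches and not measured binding sites, and no binding was measured here.

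Total counts per sample ranged from 68529126 to 79591989, and a gene with 3 counts was at 0.0377 to 0.0438 CPM, a count relative to its library total. The tissue label was matched by its markers, with FPKM (fragments per kilobase of gene length, scaled to library size) of the cardiac troponin gene Tnnt2 between 2564 and 6231. Some libraries stood apart in ways that bear on the hormone genes. The summed FPKM of 10 atrial cardiomyocyte markers was, in replicate order, 15496, 198.7 and 14557 for sham against 2262, 45.0 and 52.3 for ischemia. Myl7, Myl4 and Sln made up most of the sum in sham replicates 1 and 3. Of the 10 markers, 9 had a log2 fold change below 0, and the list median was -3.52, or -6.56 without ischemia replicate 1. Gja5 went the other way and was higher in all ischemia samples. None of the 10 markers passed the test described next, and none was at 0. The sum of 4 ventricular markers ran the other way within sham, from 1166 in replicate 1 to 11843 in replicate 2. Y-linked genes held 161 reads in sham replicate 1 and 3218 to 8970 elsewhere, in a study described as using male rats. All 7 neutrophil and monocyte markers in the table were called higher in ischemia, with summed FPKM of 102.6 to 181.1 in sham and 1230 to 8336 in ischemia, and their part in the levels of the members was not tested. No marker was called among 7 cardiomyocyte, 7 endothelial, 6 fibroblast and 6 adipocyte and mesothelial genes, and 1 of 6 mural cell markers, the potassium channel subunit gene Abcc9, was called lower. Median log2 fold changes of these lists were -0.80, -0.07, -1.59 and -2.81, and -1.30 for the mural cell markers. Single samples moved these medians, to -0.48 for cardiomyocyte markers without ischemia replicate 2, to -1.03 and -0.71 for fibroblast and mural cell markers without sham replicate 3, and to -6.99 for adipocyte and mesothelial markers without ischemia replicate 1. The endothelial median ran from -0.14 without ischemia replicate 1 to 0.13 without sham replicate 2.

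None of the members passed the test of ischemia against sham. With the quasi-likelihood test of edgeR on counts, 0 of the 6 tested members reached a Benjamini-Hochberg adjusted p under 0.05, where 6.71% of all 13964 tested genes did, 5.18% as higher and 1.53% as lower. At an unadjusted edgeR p under 0.05 there were 4 members (Npr1, Npr2, Npr3 and Corin), as were 32.4% of all tested genes. DESeq2 called the same 4, where it called 27.5% of 13856 genes with an adjusted p, and limma on log2(FPKM + 0.1) called 0, where it called 7.96%. On simulated data for this comparison, with 200 of 13964 genes changed, DESeq2 recovered 72.5% of the changed genes with 62 of 207 calls false, and edgeR recovered 25.5% with 1 of 52 false. The median log2 fold change of the 6 tested members was -1.715, with 5 of 6 below 0, against -0.0015 over all tested genes with 6996 below 0. Among these 5 members, Nppa and Nppb were above 0 with an atrial marker score as a covariate, at 3.67 and 1.72. Samples of the groups did not overlap for 2 members, Npr1 higher and Npr2 lower in ischemia, where 38.6% of all tested genes did not overlap, 23.6% higher and 15% lower. The calls over all genes also depended on single libraries, with 0 left when any 1 sham sample or ischemia replicate 3 was left out. Exact permutation tests of 3 samples against 3 cannot give a two-sided p below 0.1. The samples came from whole tissue, in which fewer cells of a type and less RNA per cell cannot be told apart.

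**Figure D1:**
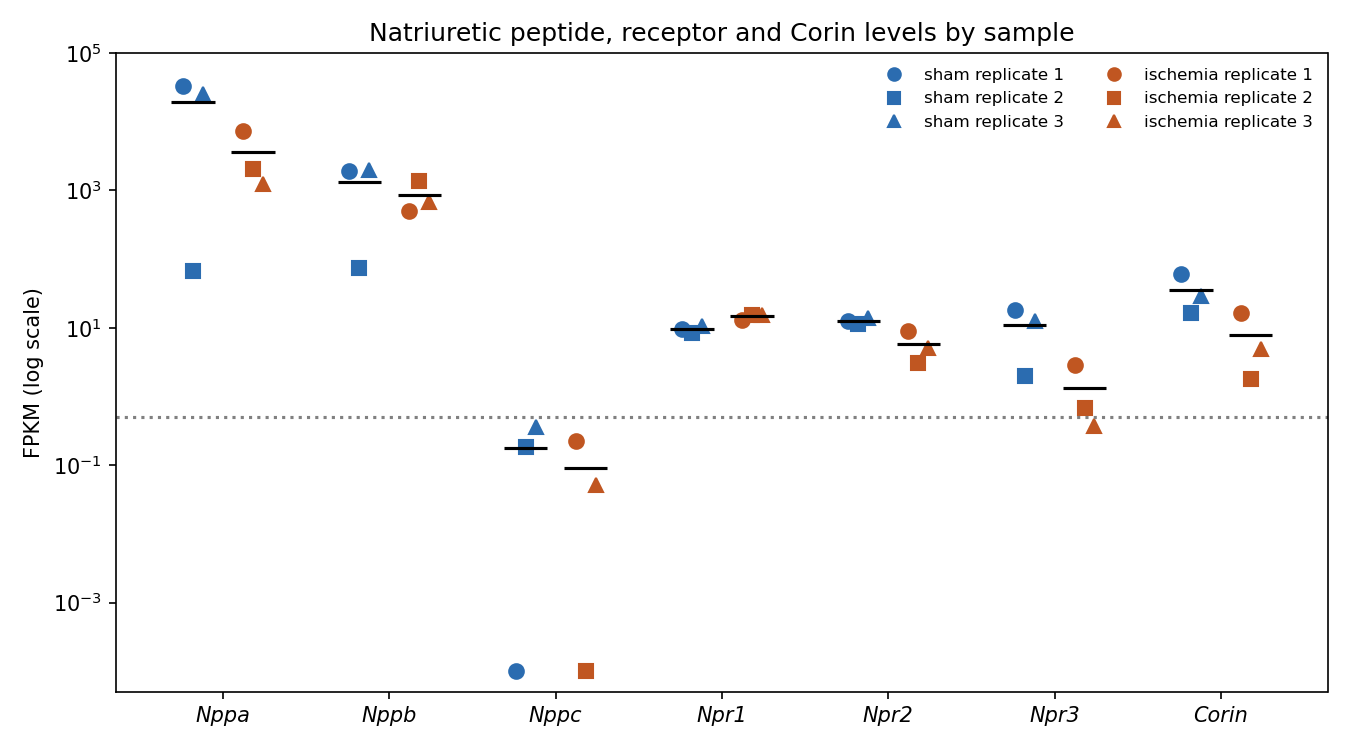
FPKM on a log axis of the 7 genes in each sample, with sham in blue, ischemia in orange, the marker shape for the replicate number and a black line for the group mean. The dotted line is the mean FPKM of 0.5 required for testing, and samples of Nppc without reads are drawn at the 0.0001 listed for them. Nppa spanned 67.7 to 33225 FPKM within sham, while Npr1 spanned 8.43 to 10.7.

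Nppa, which encodes ANP, was the member with the highest mean level and the widest spread. Its FPKM in replicate order was 33225, 67.7 and 25111 for sham, against 7431, 2051 and 1251 for ischemia. All ischemia samples lay between the lowest and the highest sham sample, so the groups overlapped completely. Sham replicates 1 and 3 placed Nppa second of 32623 genes by FPKM, sham replicate 2 placed it 966th, and the ischemia samples placed it 8th, 33rd and 62nd. Reads of this single gene made up 3.04% of all counts in sham replicate 1 (95% Clopper-Pearson interval 3.04 to 3.05, counting error only) and 0.00620% in sham replicate 2 (0.00603 to 0.00638).

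Nppa averaged 19468 ± 17284 FPKM (SD, n = 3) for sham and 3578 ± 3361 FPKM (SD, n = 3) for ischemia. In edgeR this gave a log2 fold change of -2.42 ± 1.66 (SE, adjusted p 0.337), while limma on log2(FPKM + 0.1) gave -0.52 (limma adjusted p 0.887). Highest and lowest sham samples differed 490-fold, against 5.94-fold among ischemia samples. The fitted direction depended on sham replicates 1 and 3 together, the samples with the highest Nppa and also the highest atrial marker sums. It stayed negative without replicate 1 alone (-1.78) and without replicate 3 alone (-2.21). Without both of them the log2 fold change was 5.43, with the lone sham sample assumed to vary like the ischemia samples. That sign was fixed in advance, since the sham sample left, replicate 2, had the lowest Nppa of all samples. With the atrial marker score as a covariate the log2 fold change was 3.67 (edgeR adjusted p 0.617), and without sham replicate 2 it was -3.01 (edgeR adjusted p 0.1145). The part of atrial tissue content in the level of Nppa was not tested.

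Nppb, which encodes BNP, had an FPKM of 1927, 74.9 and 1986 in sham and 505, 1371 and 686 in ischemia. Sham replicate 2 was again the lowest of the 6 samples, and every ischemia sample lay inside the sham range. Its levels spread less than those of Nppa, with a 26.5-fold difference within sham and 2.72-fold within ischemia. The means were 1329 ± 1087 (SD, n = 3) and 854 ± 457 (SD, n = 3). The edgeR log2 fold change of -0.65 ± 0.98 (SE) had an adjusted p of 0.661. The direction turned to 0.24 by limma on log2(FPKM + 0.1), to 1.72 with the atrial covariate and to 3.18 without sham replicates 1 and 3. The last of these signs was fixed in advance, since only sham replicate 2, the lowest sample, was left for sham. With the cardiomyocyte covariate the log2 fold change was -2.40 (edgeR adjusted p 0.528). Without sham replicate 2 it was -1.21 (edgeR adjusted p 0.149).

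The ligand genes were next set against each other and against the atrial myosin light chain gene Myl7, since ratios within a sample do not depend on library scaling. The Nppb to Nppa ratio of FPKM was 0.0580, 1.11 and 0.0791 in sham and 0.0680, 0.669 and 0.548 in ischemia. Nppa far exceeded Nppb in sham replicates 1 and 3 and in ischemia replicate 1, the samples with the highest atrial marker sums. In the other samples the transcripts were closer to each other. Myl7 itself was at 6530, 117 and 3541 FPKM in sham and at 764, 10.004 and 12.3 in ischemia.

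For each unit of Myl7 FPKM there were 5.09, 0.579 and 7.09 units of Nppa in sham and 9.72, 205.0 and 101.6 in ischemia. All ischemia ratios were above all sham ratios. The same order held for Nppb, with 0.295, 0.640 and 0.561 in sham and 0.661, 137.1 and 55.7 in ischemia, though ischemia replicate 1 exceeded sham replicate 2 only slightly. Ischemia replicates 2 and 3 thus combined the lowest Myl7 with Nppa levels of 1251 FPKM or more, and sham replicate 2 combined low Myl7 with the lowest Nppa. Low Myl7 raises the ratio of any gene to it, and the share of all genes with such an order was not taken. Myl7 was 1 of 10 atrial markers and was named after its values were seen. Ratios to the other atrial markers were not taken, and the order need not hold for them. Per unit of the troponin gene Tnnt2 the groups overlapped, with Nppa ratios of 6.40, 0.0109 and 5.60 for sham against 1.305, 0.800 and 0.285 for ischemia. The part of atrial tissue content in these ratios was not tested.

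**Figure D2:**
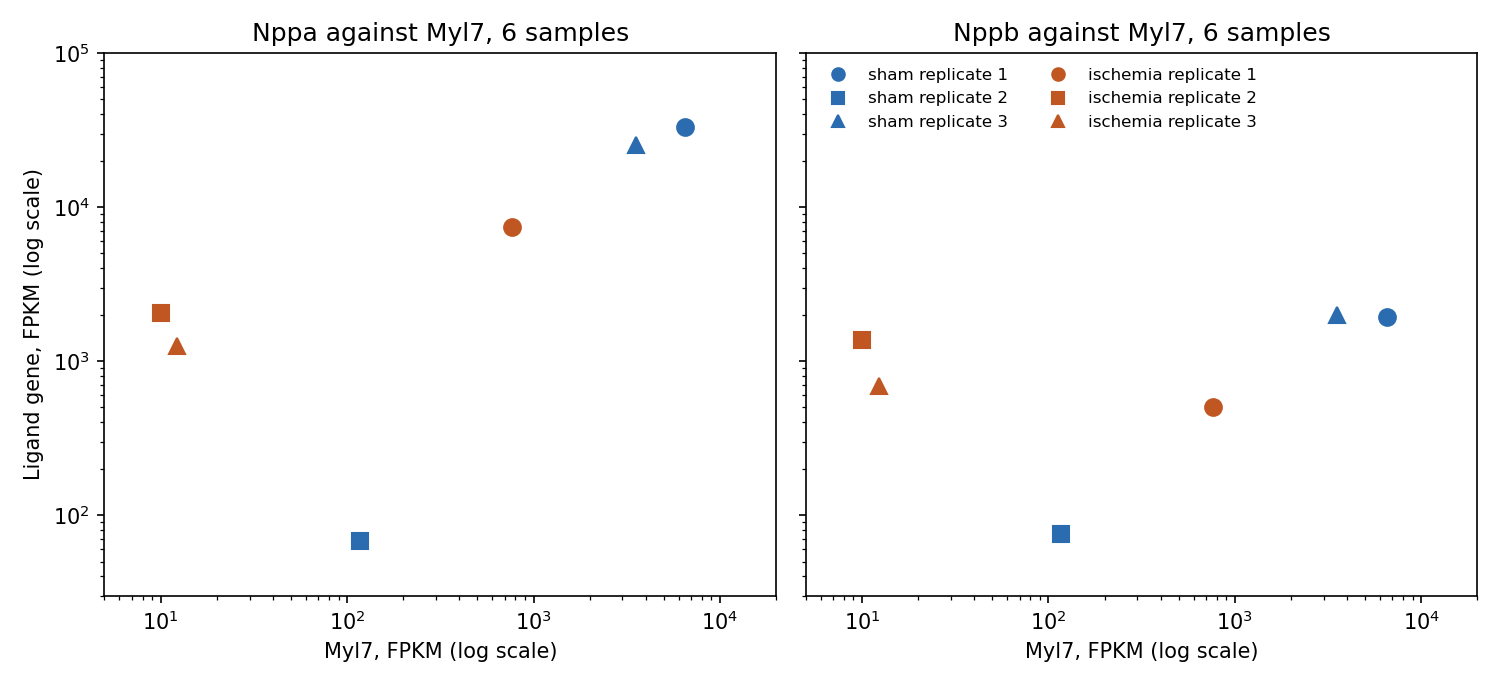
FPKM of Nppa (left) and Nppb (right) against that of the atrial gene Myl7, both on log axes, with 1 point for each of the 6 samples. For Nppa, sham replicates 1 and 3 and ischemia replicate 1 rise together, sham replicate 2 is at 67.7 FPKM with Myl7 at 117, and ischemia replicates 2 and 3 are at 2051 and 1251 FPKM with Myl7 at 10.004 and 12.3.

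Nppc, the C-type peptide gene made mainly outside cardiomyocytes, was close to the detection limit. It had 0, 16 and 27 counts in sham and 19, 0 and 4 in ischemia. With a limit of 3 counts for a count of 0, the share could be up to 4.07e-06% of the library in sham replicate 1 and 4.15e-06% in ischemia replicate 2. Its mean FPKM was 0.135 over the 6 samples, under the 0.5 required for testing, and without that filter edgeR put its log2 fold change at -1.01 ± 1.89 (SE, adjusted p 0.756). Nppc overlaps Dis3l2, a gene on the opposite strand with 765 to 1242 counts. Whether reads were counted by strand is not given in the sources used here, so reads of Nppc and Dis3l2 cannot be told apart there. A difference of Nppc was not detectable at these low counts and with this spread between samples.

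Among the receptor genes, Npr1, the cyclase receptor of ANP and BNP, had an FPKM of 9.64, 8.43 and 10.7 in sham and 12.9, 15.4 and 15.5 in ischemia. Every ischemia sample was above every sham sample, and neither group varied by more than 1.27-fold. Means were 9.58 ± 1.13 (SD, n = 3) and 14.6 ± 1.48 (SD, n = 3), a ratio of 1.52. By edgeR, Npr1 had a log2 fold change of 0.53 ± 0.16 (SE, adjusted p 0.0851), and the exact permutation test gave p = 0.1. It was positive in all 21 alternatives, from 0.42 with the atrial covariate to 0.61 with total-count scaling, and passed with DESeq2 (0.50, DESeq2 adjusted p 0.0211).

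Npr2, the cyclase receptor of the C-type peptide, went the other way. It was at 12.7, 11.2 and 14.05 FPKM in sham and at 8.96, 3.09 and 5.11 in ischemia. The sham samples lay close together, and every ischemia sample was below them, ischemia replicate 1 the least. Group means were 12.7 ± 1.42 (SD, n = 3) and 5.72 ± 2.98 (SD, n = 3). The edgeR estimate was a log2 fold change of -1.21 ± 0.40 (SE, adjusted p 0.104), with p = 0.1 in the exact permutation test. Without ischemia replicate 1 it was -1.70 and passed (edgeR adjusted p 0.0272), as it did with DESeq2 (-1.24, DESeq2 adjusted p 0.0252), while a covariate for cardiomyocyte markers reduced it to -0.22 (edgeR adjusted p 0.869).

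The level of Npr2 relative to Npr1 varied little in sham, at 1.320, 1.329 and 1.315, and was 0.695, 0.2005 and 0.330 in ischemia. The ratios of FPKM averaged 1.32 ± 0.0071 (SD, n = 3) for sham and 0.408 ± 0.256 (SD, n = 3) for ischemia. Npr2 thus exceeded Npr1 in each sham sample and was below it in each ischemia sample. Since Npr1 was higher and Npr2 lower in all ischemia samples, their ratio had to separate the groups. The part of cell type markers in this ratio was not tested. When 1 sample at a time was left out, the difference of the mean log2 ratio stayed between -2.36 and -1.46, around -1.88 with all samples.

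Npr3, the clearance receptor, had an FPKM of 18.3, 1.98 and 12.6 in sham and 2.88, 0.678 and 0.373 in ischemia. Sham replicate 2 was below ischemia replicate 1, so the groups overlapped in that pair. Its means were 11.0 ± 8.31 (SD, n = 3) and 1.31 ± 1.37 (SD, n = 3). Its edgeR log2 fold change, the lowest among the members, was -3.06 ± 1.02 (SE, adjusted p 0.105), and p was 0.2 in the exact permutation test. It was -4.425 without ischemia replicate 1 (edgeR adjusted p 0.0368) and -3.08 with DESeq2 (DESeq2 adjusted p 0.00500), but -0.89 without sham replicates 1 and 3 and -1.09 with the atrial covariate. Atrial marker sums were highest in the samples with the highest Npr3, sham replicates 1 and 3, and the summed FPKM of 7 endothelial and endocardial markers was 181.8 to 187.7 in sham and 183.4 to 222.5 in ischemia. No fit used the endothelial and endocardial list, and the part of either marker list in the level of Npr3 was not tested.

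As a share of the summed FPKM of the 3 receptor genes, Npr1 made up 23.7%, 39.0% and 28.6% in sham and 52.1%, 80.4% and 73.8% in ischemia. Npr3 made up 45.1%, 9.16% and 33.8% for sham against 11.7%, 3.53% and 1.78% for ischemia. The shares of Npr1 did not overlap between the groups, whereas those of Npr3 did. In sham replicate 1 the clearance receptor was the most abundant of the receptor transcripts, in sham replicates 2 and 3 it was Npr2, and in all ischemia samples it was Npr1. These are shares of transcript levels per length, and receptor protein was not measured.

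**Figure D3:**
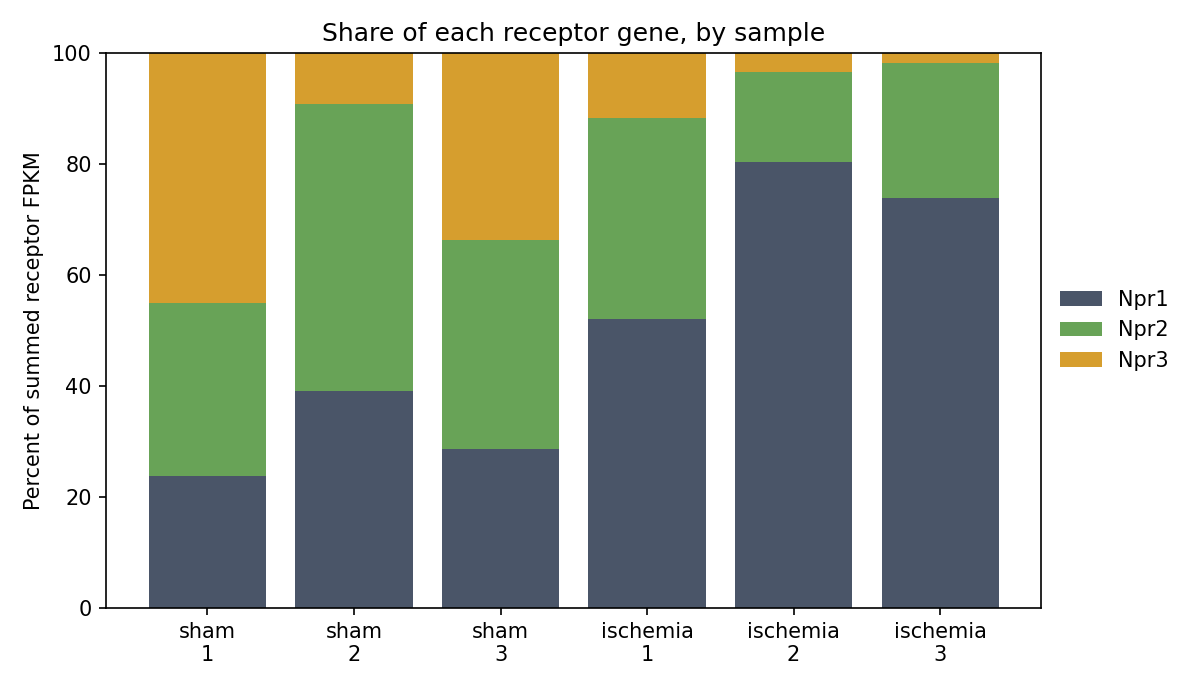
Each bar is 1 sample, and its segments are the shares of Npr1, Npr2 and Npr3 in the summed FPKM of the receptor genes, in percent. Npr1 takes 23.7% to 39.0% in sham and 52.1% to 80.4% in ischemia.

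Corin, the membrane protease that activates ANP, was at 61.5, 16.5 and 29.5 FPKM in sham and at 16.6, 1.78 and 4.96 in ischemia. Ischemia replicate 1 was level with sham replicate 2, and the other ischemia samples were below all sham samples. The sham mean was 35.8 ± 23.2 FPKM (SD, n = 3), and the ischemia mean was 7.77 ± 7.79 FPKM (SD, n = 3). Corin had an edgeR log2 fold change of -2.22 ± 0.87 (SE, adjusted p 0.138) and an exact permutation p of 0.2. Without ischemia replicate 1 it was -3.42 (edgeR adjusted p 0.0377), with DESeq2 -2.24 (DESeq2 adjusted p 0.0238), and with the cardiomyocyte covariate -0.49 (edgeR adjusted p 0.885). It was -1.36 without sham replicates 1 and 3 and -1.18 with the atrial covariate. The 7 cardiomyocyte markers tested had a summed FPKM of 26934 to 33235 in sham and 10204 to 18496 in ischemia. Corin per unit of the troponin gene Tnnt2 was 0.0119, 0.00265 and 0.00657 in sham and 0.00291, 0.000695 and 0.00113 in ischemia, a spread that also overlapped.

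**Figure D4:**
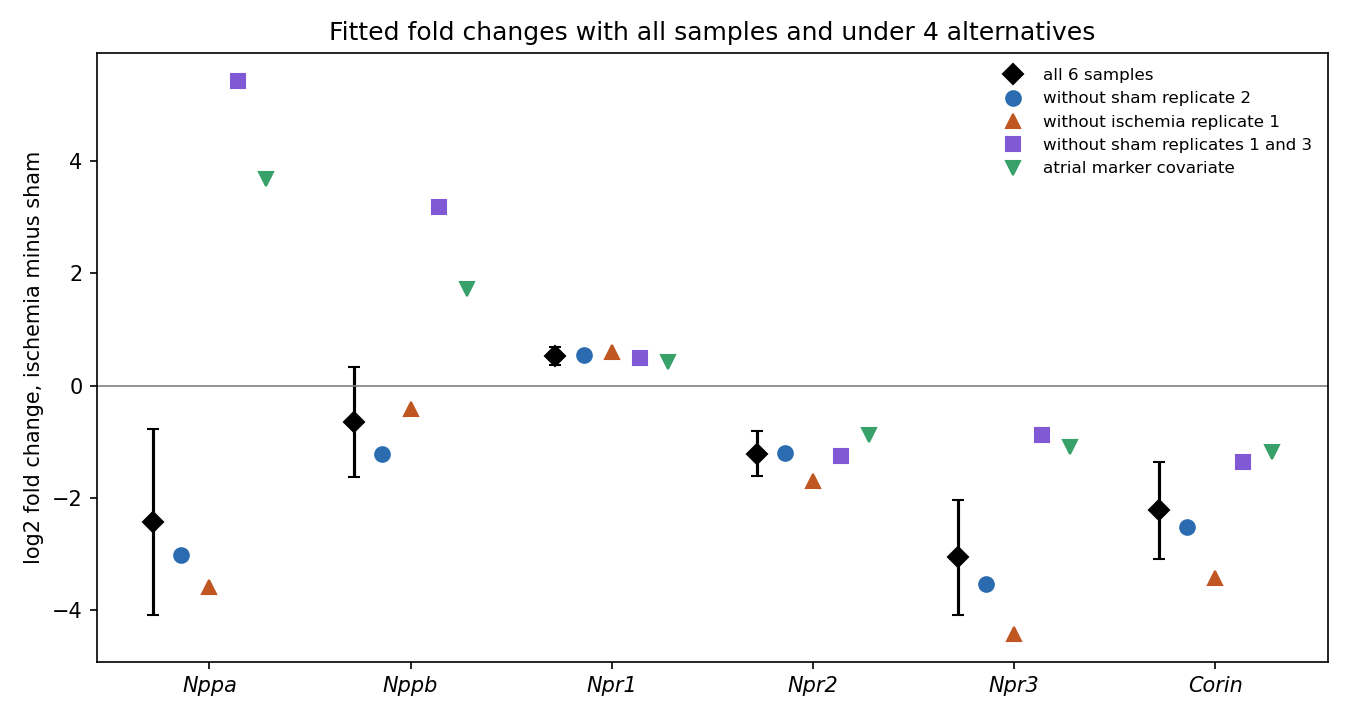
Fitted log2 fold changes, ischemia minus sham, of the 6 tested members with all samples (black diamonds, bars are the SE), without sham replicate 2, without ischemia replicate 1, without sham replicates 1 and 3, and with the atrial marker score as a covariate. Nppa moves from -2.42 to 5.43 and 3.67 in the latter 2, while Npr1 stays between 0.42 and 0.59 and Npr2 between -1.70 and -0.88. Without sham replicates 1 and 3, the only sham sample left is the one with the lowest Nppa and Nppb.

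Other genes of the pathway were described from fixed lists. Of 6 tested genes of peptide processing and clearance, 0 were called higher and 1 lower, where 5.18% and 1.53% of all tested genes were. Their median log2 fold change was -0.99, which was -0.50 without sham replicates 1 and 3, -0.49 with the atrial covariate and -0.38 with the cardiomyocyte covariate. The called gene was Dpp4, a peptidase that trims BNP, at 3.14, 2.63 and 3.04 FPKM in sham and 0.649, 0.621 and 0.745 in ischemia (log2 fold change -2.20 ± 0.23 SE, edgeR adjusted p 0.0246). Pcsk6, the convertase that activates corin, was at 21.6, 34.97 and 23.9 FPKM in sham and 17.0, 11.1 and 9.14 in ischemia (edgeR adjusted p 0.0836). It was lower in all ischemia samples, as were 15% of all tested genes. Furin was higher in all of them, as were 23.6%, at 28.3, 26.2 and 32.3 FPKM in sham and 35.9, 44.4 and 37.3 in ischemia (edgeR adjusted p 0.191). In this list 2 genes had a log2 fold change above 0 and 4 below. Pam, which encodes an amidating enzyme that is a main membrane protein of atrial secretory granules, followed the sample order of Npr3 within sham, at 1467, 199.9 and 898.7 FPKM, and was at 396.9, 87.6 and 134.5 in ischemia (edgeR adjusted p 0.149). Ostn, whose product competes for the clearance receptor, had no reads in any sample.

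Among other genes of cGMP turnover, 0 of 7 tested genes of the soluble guanylyl cyclase and of phosphodiesterases were called by edgeR, and 5 were at an unadjusted p under 0.05, which 32.4% of all tested genes reached. Their median log2 fold change was -1.15, or -0.73 without sham replicates 1 and 3. Of the 7, 4 were lower in all ischemia samples, as were 15% of all tested genes. Gucy1a1, a subunit of the soluble guanylyl cyclase that answers nitric oxide, was at 8.67, 3.25 and 8.39 FPKM in sham and 2.31, 0.612 and 0.978 in ischemia (log2 fold change -2.40 ± 0.59 SE, edgeR adjusted p 0.0581). Pde1a, a phosphodiesterase that degrades cyclic nucleotides, had a log2 fold change of -1.63 ± 0.41 (SE, edgeR adjusted p 0.0600). The cGMP kinase gene Prkg2 was too low to test, and Prkg1 was not analysed here. Of 6 tested substrates and effectors of cGMP kinase 0 were called, against 6.71% of all tested genes, with a median of -0.43. That median was -0.25 without sham replicate 2, -0.26 without ischemia replicate 3, -0.20 without sham replicates 1 and 3, -0.11 at a mean FPKM of at least 5, -0.23 with the atrial covariate and -0.68 with the cardiomyocyte covariate. The 2 with the lowest p were Rgs4, a regulator of G protein signaling (-0.97, edgeR adjusted p 0.0737), and Mrvi1, a kinase substrate that restrains calcium release (-1.575, edgeR adjusted p 0.119).

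Among 14 transcription factors known to act on the ligand genes 0 were called, against 6.71% of all tested genes, and the median log2 fold change was -0.35, or -0.12 with the cardiomyocyte covariate. Gata4, a factor that binds GATA sites, was at 49.9, 50.3 and 56.2 FPKM in sham and 37.4, 22.7 and 35.9 in ischemia (log2 fold change -0.78 ± 0.27 SE, edgeR adjusted p 0.114). Tbx5, a T-box factor of the atria and left ventricle, was at 60.0, 5.76 and 40.5 FPKM in sham and 13.7, 2.13 and 5.54 in ischemia, an order of samples close to that of Npr3 and Corin (edgeR adjusted p 0.153). The 8 load-responsive cardiomyocyte genes had log2 fold changes from 0.04 to 6.725, with a median of 1.25 that was 0.66 without ischemia replicate 3. Of the 8, 1 was called higher, where 5.18% of all tested genes were, namely Ankrd2, an ankyrin repeat protein of the stretch response, at 0.521, 0.0306 and 0.854 FPKM in sham and 45.9, 26.1 and 74.9 in ischemia (log2 fold change 6.725 ± 1.08 SE, edgeR adjusted p 0.0334).

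**Figure D5:**
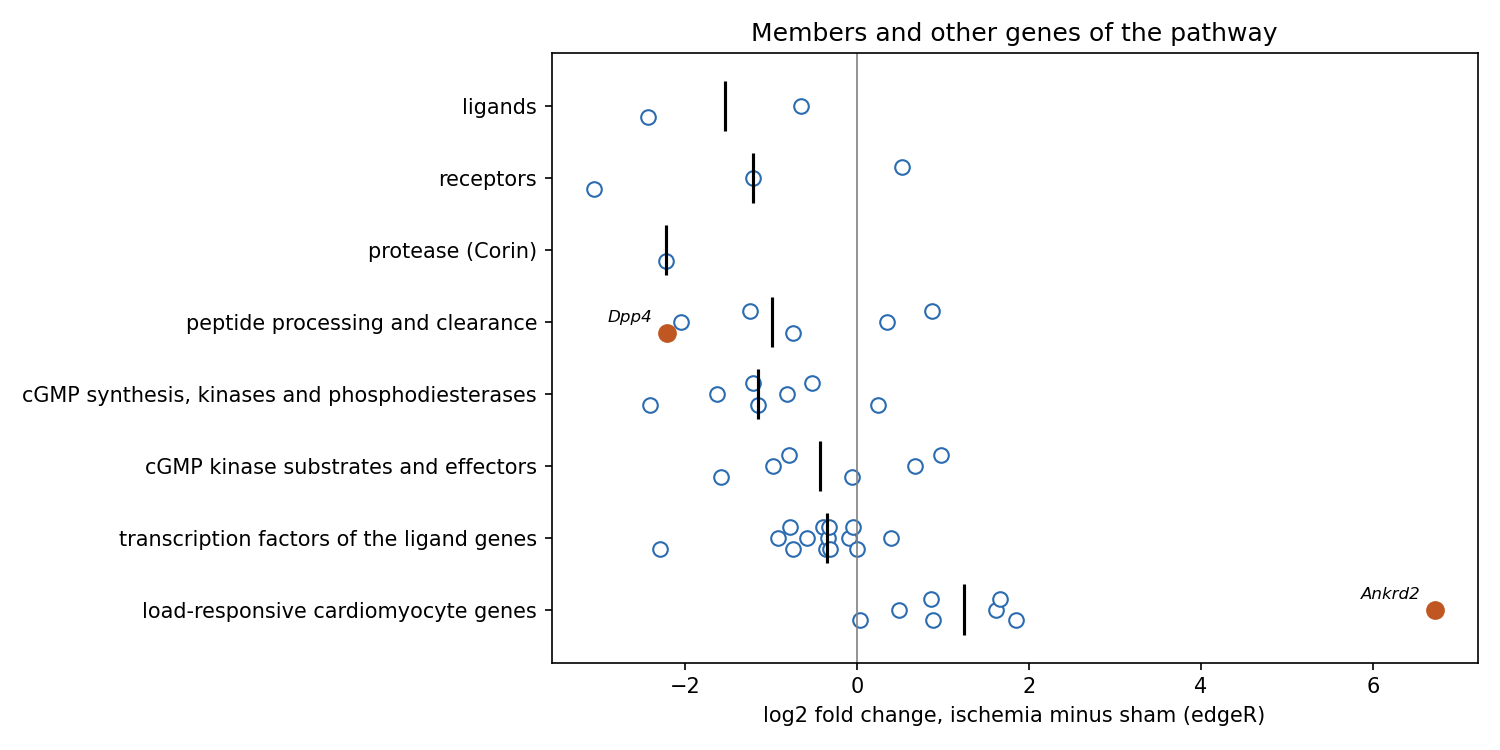
Each point is 1 tested gene, placed by its edgeR log2 fold change (ischemia minus sham) and list, filled and named where the adjusted p was under 0.05, with a black bar for the median of the list. Only Dpp4 (-2.20) and Ankrd2 (6.725) are filled among the genes drawn, and the medians run from -2.22 for Corin to 1.25 for the load-responsive genes.

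For each tested member the most similar genes were found by the Pearson correlation of log2 CPM over the 6 samples, among 12226 other named genes. Nppa was most like Cpa6 (r = 0.994), Sbk3 (0.984) and Rab15 (0.9815), and 63 genes exceeded 0.9. Cpa6 was at 7.64, 0.0001 and 7.40 FPKM in sham, where 0.0001 stands for no reads, and at 1.66, 0.234 and 0.207 in ischemia. Nppb was most like Fam184a (0.9905), Casc4 (0.985) and Psip1 (0.984). No gene was shared by the nearest 3 of both ligand genes.

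Npr1 was nearest to Rin1 (0.997), Bcar1 (0.996) and Ddx56 (0.994), with Bcar1 at 15.45, 14.4 and 18.45 FPKM in sham and 37.6, 48.1 and 60.0 in ischemia. Npr2 resembled Nudt3, Adh5 and Bcam (0.999 to 0.998), Npr3 resembled Tmem163, Fam216b and Prss53 (0.999 to 0.995), and Corin resembled Mbtps1, Dym and Tctex1d2 (0.999 to 0.998). As many as 1640 genes exceeded 0.9 with Npr2 and 1152 with Corin. These correlations are descriptions over 6 libraries that share their depth and tissue differences.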

How the data were processed

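RNA of rat myocardium was sequenced from stranded total RNA libraries in 3 sham and 3 ischemia samples, grouped by their titles. The raw counts per gene and the FPKM values were deposited by the authors in 1 table, in which genes without reads carry 0.0001 FPKM. The submitters' processing notes name STAR and HTSeq, and versions and genome build are not given in the sources used here. The members and gene lists were chosen with earlier results of these data known.

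A mean of 0.5 FPKM across samples was required for testing, which 13964 genes met, and these went into the quasi-likelihood test of edgeR 4.0.16 (R 4.3.3) on counts scaled by the trimmed mean of M-values, with group as the only term. Two-sided p-values received Benjamini-Hochberg adjustment across these genes (threshold 0.05), and each SE was the log2 fold change divided by the root of its F value. Single values were compared with exact permutation tests. Alternatives used DESeq2 1.42.0 and limma 3.58.1 on log2(FPKM + 0.1), other scalings and filters, covariates, a block and samples left out.

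The genes named were the 7 members, genes of the pathway lists past the threshold or otherwise the 2 with the lowest p in each such list, and the 3 genes most like each member. Cell type marker lists were given by counts and sums. Pcsk6, Furin, Pam, Ostn, Prkg1, Prkg2, Abcc9, Myl7, Myl4, Sln, Gja5, Tnnt2 and Dis3l2 were named outside that rule, after their values were seen. Of the listed genes 108 were in the table, and 5 symbols were not analysed here. On simulated data with 200 of 13964 genes changed by 2 on the log2 scale, edgeR recovered 25.5% with 1 false call among 52. The study describes sequencing in rats with and without ischemia and 3 independent experiments, without stating that each sample is a separate animal. The p-values therefore measure the spread between these samples.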

Additional observations from a re-analysis of the deposited data

How the results depend on the processing

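All 21 alternatives were marked as planned, but the gene lists used for covariates were chosen with earlier results of these data known. Of 126 member values, 112 kept their direction and side of the threshold. DESeq2 gave 2071 higher and 1742 lower genes, against 723 and 214 with edgeR, and called 4 members, namely Npr1 (0.50), Npr2 (-1.24), Npr3 (-3.08) and Corin (-2.24). Limma put Nppa at -0.52, -0.53 and -0.52 and turned Nppb to 0.24, 0.24 and 0.24 with pseudocounts of 0.1, 1 and 0.01. Lower genes numbered 83 with total-count scaling and 93 without a filter. Without sham replicates 1 and 3, Nppa was at 5.43 and Nppb at 3.18, where the only sham sample left was the lowest for both. With the atrial covariate there were 0 higher and 0 lower genes, with Nppa at 3.67 and Nppb at 1.72, and with the cardiomyocyte covariate 0 and 0. Deviations of same-numbered samples correlated at -0.0561, -0.0940 and -0.196, so the numbers were not taken as pairs. The replicate block gave 0 higher and 0 lower genes, and it changed no member's call or direction. Leaving out 1 sample gave 0 to 1490 higher genes, 0 to 1115 lower genes and 0 to 3 called members, with Nppa from -3.59 to -1.78, Nppb from -1.21 to -0.26, Npr1 from 0.43 to 0.59, Npr2 from -1.70 to -0.89, Npr3 from -4.425 to -2.49 and Corin from -3.42 to -1.64. The 3 calls, 1490 higher and 1115 lower genes arose without ischemia replicate 1, and 462 and 109 were called without ischemia replicate 2, while each other omission gave 0. In the 8 edgeR fits without any call, 1707 to 3809 genes had an unadjusted p under 0.05. The causes were not tested. Depth limits the values of Nppc.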
